A study of Homo sapiens with 12 samples.

Results

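A total of 226 genes with a lower RNA-Seq level after 30 min of serum are described here, out of 19901 protein-coding genes in the count table. The members were chosen from the readout. For each gene the CPM (its read count scaled to the gene counts of the library, in parts of 1000000) was averaged over the 3 libraries of a group, and a member had a mean of at least 50 counts over the 12 libraries and a log2 ratio of DMSO-S30 to DMSO-S0 at or under -0.585, a fall of 33.3% or more. Of the 11639 genes with a mean of at least 50 counts, 233 passed that threshold, and 7 of these have symbols beginning with ZNF and were left out. Since the ratio of DMSO-S30 to DMSO-S0 selected the genes, it is given below as a description only. The one test of the members is that of serum in the separate libraries of dTAG-treated cells, and the interaction, which contains the selecting ratio, is given as counts from which nothing is read.

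The libraries came from HCT116 cells, a human colorectal carcinoma line, of 1 clone (CloneD5) in which KAP1, the corepressor encoded by TRIM28, carries a degron tag in every sample. All cells were held in serum-free medium for 48 h and received the degrader dTAG or its solvent DMSO for 8 h before the serum step. Serum was then either withheld (S0) or given for 30 min (S30), which makes 4 groups of 3 libraries, called DMSO-S0 and DMSO-S30 after the solvent and dTAG-S0 and dTAG-S30 after the degrader. Gene counts per library were between 18658747 and 23861254, spike-in RNA took 7.97% to 9.37% of counts, and mitochondrial genes took 7.18% to 9.04% of gene counts. TRIM28 RNA, which degradation of the protein does not target, averaged 98.4 ± 5.81 CPM (SD, 3 libraries) in DMSO-S0 against 94.4 ± 5.56 CPM in dTAG-S0, so the RNA does not check the depletion. Of 7 epithelial markers, 6 had a mean of at least 50 counts and VIL1, villin, a mean of 3.33, while of 12 markers of other cell types 3 had a mean under 1 count and only COL1A1 reached 50. The summed level of those 12 markers was 15.8 to 19.8 CPM without serum and 67.6 to 87.2 CPM with serum in both treatments, and COL1A1, a collagen gene, took it from a mean of 14.97 to one of 79.5 CPM in DMSO-treated cells; its part in the members' levels was not tested.

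Growth factors in serum act on cells held without it through receptor tyrosine kinases and the MAPK and PI3K pathways, which switch on immediate early genes through factors such as SRF and shut off factors such as FOXO that are active in starved cells. A transcript can lose abundance within minutes when it is short-lived and its synthesis falls, and counts taken over whole genes also hold unspliced RNA, which turns over faster than mature mRNA. RNA from whole cultures does not separate fewer cells that express a gene from less RNA per cell, and these cannot be told apart here.

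The 4 promoters below belong to the named members with the lowest DMSO ratios that have a RefSeq entry, and they are shown because these genes lost the largest share of their level. Each is the 250 bases before the RefSeq start (GRCh38.p14), 5′ to 3′ on the strand of the gene. Capitals mark a match to one of the motifs searched, here CCAAT boxes and GC boxes in either orientation. TRAPPC5 lies at chr19:7680583-7680832 on the plus strand, GDF5 at chr20:35454750-35454999 on the minus strand, ANKUB1 at chr3:149792555-149792804 on the minus strand and H3-3A at chr1:226061581-226061830 on the plus strand.
TRAPPC5: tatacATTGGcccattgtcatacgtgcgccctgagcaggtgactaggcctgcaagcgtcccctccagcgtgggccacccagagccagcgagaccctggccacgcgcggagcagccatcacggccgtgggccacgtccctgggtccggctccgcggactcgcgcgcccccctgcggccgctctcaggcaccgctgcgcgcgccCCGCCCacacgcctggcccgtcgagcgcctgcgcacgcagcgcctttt
GDF5: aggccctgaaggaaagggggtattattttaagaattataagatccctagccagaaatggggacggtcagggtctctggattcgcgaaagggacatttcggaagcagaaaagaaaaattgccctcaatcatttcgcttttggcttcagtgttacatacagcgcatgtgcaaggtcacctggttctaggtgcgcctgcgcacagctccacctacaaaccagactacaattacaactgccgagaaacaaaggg
ANKUB1: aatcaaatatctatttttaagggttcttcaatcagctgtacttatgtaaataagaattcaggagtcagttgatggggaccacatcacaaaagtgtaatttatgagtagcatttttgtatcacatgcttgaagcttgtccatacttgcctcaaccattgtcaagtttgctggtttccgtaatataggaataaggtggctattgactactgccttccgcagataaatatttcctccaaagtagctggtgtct
H3-3A: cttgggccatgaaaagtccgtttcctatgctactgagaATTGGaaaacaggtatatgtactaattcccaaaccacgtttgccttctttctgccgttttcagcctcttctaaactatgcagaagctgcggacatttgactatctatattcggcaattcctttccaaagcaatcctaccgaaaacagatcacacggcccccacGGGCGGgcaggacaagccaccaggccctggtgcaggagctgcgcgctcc

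TRAPPC5 and H3-3A each held 1 CCAAT box and 1 GC box in this stretch, and GDF5 and ANKUB1 held none of the letters searched. Over all members, 162 had a RefSeq window, here of 300 bases that also takes in the 50 bases after the start. The GC box GGGCGG was in 73.5% of these 162 windows, against 72.0% of the 9419 windows of genes with a mean of at least 50 counts and 44.6% of all 27305 windows. The CCAAT box (CCAAT) was in 37.7%, 37.0% and 35.7% of the same sets, the E-box CACGTG in 10.5%, 10.1% and 7.43%, and the TATA box TATAAA in 7.41%, 5.47% and 11.95%. The AP-1 site TGAGTCA was in 4.32%, 2.76% and 4.92%, and the CRE TGACGTC in 4.32%, 5.85% and 3.63%. The forkhead site GTAAACA was in 1 member window, 0.617%, against 2.26% and 3.41%. Both strands were searched, none of these letter strings was required to stand apart from another, and a match is a description of the letters only. The median GC content of the windows was 63.8% for members and 65.7% for genes with a mean of at least 50 counts.

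The lowest ratio belonged to TRAPPC5 (ENSG00000181029, chr19:7680843-7687703 in hg38), a subunit of the TRAPP complex that tethers vesicles in the secretory pathway. It had 3.59, 3.87 and 4.04 CPM in DMSO-S0, 1.43, 0.91 and 0.996 CPM in DMSO-S30, 2.98, 3.3 and 4.19 CPM in dTAG-S0, and 1.83, 1.36 and 1.21 CPM in dTAG-S30. The dTAG-S30 libraries lay below the dTAG-S0 libraries, with a fitted log2 fold change of -1.18 ± 0.22 (SE) (edgeR quasi-likelihood test, adjusted p = 0.00019). The DMSO libraries were separate in the same way, which the rule favours, with a log2 CPM ratio of -1.79. The mean of TRAPPC5 was 53.2 counts, near the minimum, and 70.7% of its model was not shared with another model on its strand.

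GDF5 (chr20:35433347-35454746) encodes a secreted growth factor of the BMP family that acts in joint formation. Its levels were 4.72, 3.13 and 4.59 CPM in DMSO-S0 and 1.24, 1.26 and 2.04 CPM in DMSO-S30, then 4.42, 3.74 and 3.9 CPM in dTAG-S0 and 0.847, 1.53 and 1.39 CPM in dTAG-S30. No serum library reached a library without serum in either treatment, which the rule favours in DMSO. The fitted fall in dTAG-treated cells was the largest of all 226 members at -1.68 ± 0.23 log2 (edgeR adjusted p = 3.9e-06). ANKUB1, which encodes a protein with ankyrin repeats and a ubiquitin-like domain, came next in dTAG-treated cells at -1.60 ± 0.18 log2 (adjusted p = 6.4e-08). It fell from 7.74, 7.44 and 6.24 CPM in dTAG-S0 to 2.5, 2.41 and 1.79 CPM in dTAG-S30, and its DMSO ratio was -1.37. The counted ANKUB1 model runs over chr3:149761100-149968385 on the minus strand, so that its own start lies inside PFN2 on the same strand, a gene with a mean of 1152 counts against 107 for ANKUB1. The promoter printed above belongs to the RefSeq start, which lies further inside the counted model.

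H3-3A encodes the replication-independent histone H3.3, which is laid down at active genes throughout the cell cycle. It had 21.9, 22 and 23.3 CPM in DMSO-S0, 7.99, 8.71 and 10.6 CPM in DMSO-S30, 17.5, 18.5 and 18 CPM in dTAG-S0, and 8.78, 7.96 and 9.6 CPM in dTAG-S30. Both pairs of groups were separate, which the rule favours in DMSO. The fitted change in dTAG-treated cells was -0.999 ± 0.10 log2 (edgeR adjusted p = 2.7e-08). H3-3B, the other gene for the same protein and no member, was at 451 ± 12.6 CPM in dTAG-S0 and 498 ± 37.3 CPM in dTAG-S30. H3-3A has near-identical processed copies elsewhere in the genome, and how reads with several matches were counted is not given in the sources used here, so its level is uncertain.

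With H3-3A, THBS4 and THAP2 carried the most counts among the 12 members with the lowest ratios. THBS4, a thrombospondin of the extracellular matrix, had 18.8, 22 and 18 CPM in dTAG-S0 and 11.4, 8.05 and 7.13 CPM in dTAG-S30 (-1.08 ± 0.13 log2, edgeR adjusted p = 1.7e-07). THAP2, a factor with a THAP zinc finger, had 16.7, 15.7 and 16.3 CPM in dTAG-S0 and 7.49, 7.61 and 6.01 CPM in dTAG-S30 (-1.16 ± 0.11 log2, adjusted p = 7.9e-09). In DMSO-treated cells both were separate between the groups, which the rule favours, with ratios of -1.18 and -1.16. RDM1, a RAD52-like protein of DNA repair, and ZSCAN12, a SCAN-domain zinc finger factor, had dTAG changes of -1.16 ± 0.16 and -0.82 ± 0.23 log2 and were both called lower, ZSCAN12 not without dTAG-S0 replicate 2 or dTAG-S30 replicate 3 (-0.63 and -0.69 log2).

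GBP3 and the unnamed model ENSG00000272647 were the 2 of these 12 members that did not pass the test in dTAG-treated cells. GBP3, a guanylate-binding GTPase of the interferon response, was at 3.89, 3.43 and 3.86 CPM in dTAG-S0 and at 2.67, 2.97 and 2.56 CPM in dTAG-S30, a fitted difference of -0.37 ± 0.20 log2 (edgeR adjusted p = 0.19) beside a DMSO ratio of -1.18. ENSG00000272647 had a DMSO ratio of -1.34 and a fitted dTAG difference of -0.47 ± 0.18 log2 (adjusted p = 0.053). In both genes the 3 dTAG-S30 libraries lay below the 3 dTAG-S0 libraries. The per-library plot shows that the spread within a group is wide relative to the level for the members with the fewest counts.

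**Figure D1:**
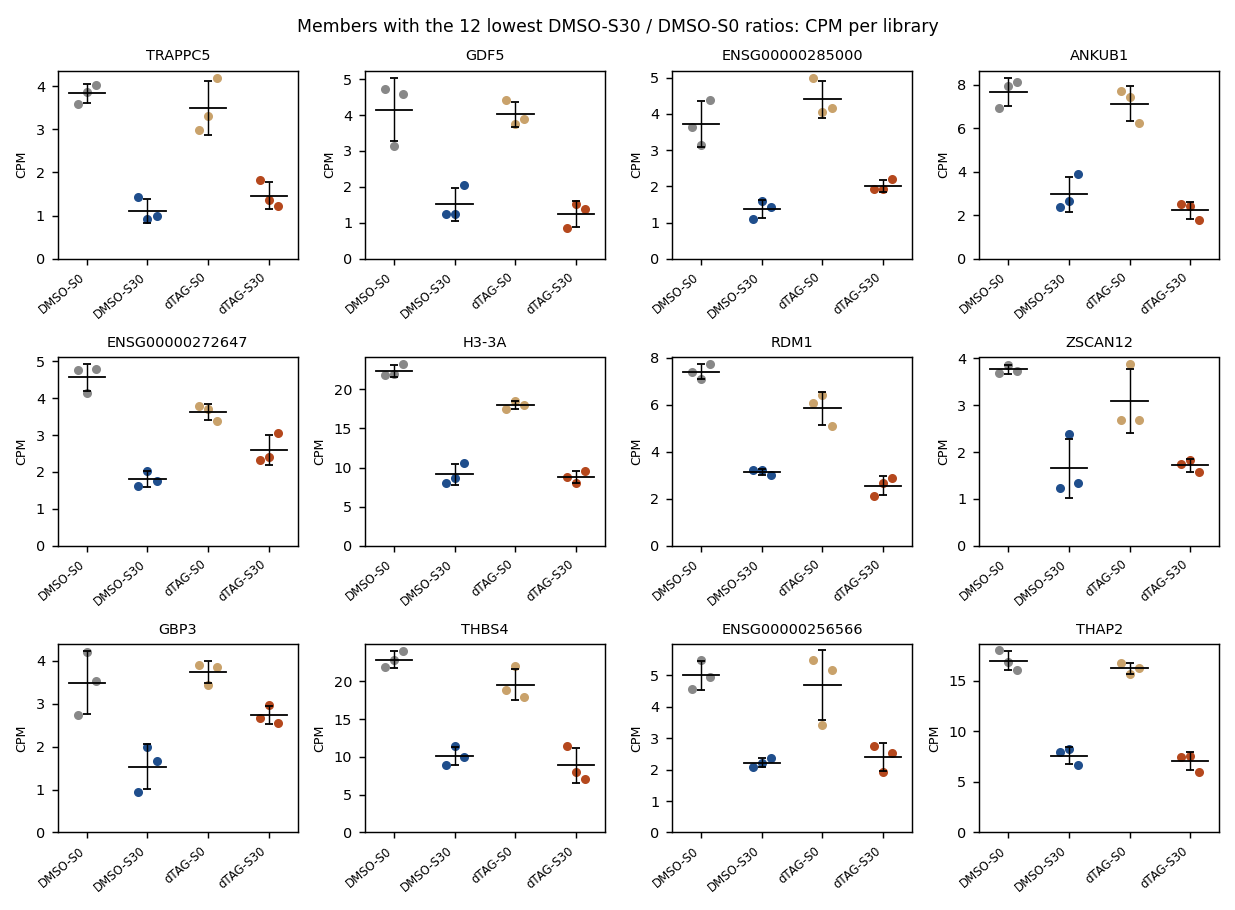
CPM (y axis, from 0) of the 12 members with the lowest DMSO ratio in each library, by group (x axis). Points are the 3 libraries of a group, lines the mean and bars the SD. In all 12 panels the DMSO-S30 libraries lie below the DMSO-S0 libraries, as the rule favours, and the dTAG-S30 libraries lie below the dTAG-S0 libraries.

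Over all 226 members the DMSO log2 ratio ran from -1.79 to -0.585 with a median of -0.70, beside a median of -0.13 over the 11639 genes with a mean of at least 50 counts, and 23 members were at or under -1. The 3 DMSO-S30 libraries lay below the 3 DMSO-S0 libraries for 224 members, where 43.1% of the 11639 genes did so, a count the rule largely fixes. The 2 members with overlapping groups were NAPSA, an aspartic protease, and IL22RA1, a receptor subunit for IL-22. SLC35D2 (-0.586), H3C13 (-0.586) and TCEANC2 (-0.585) were the members nearest the threshold, and CCDC62, INAVA and PDCD2L, each at -0.584, were nearest outside it.

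In dTAG-treated cells the same genes were mostly lower with serum. The test called 170 of the 226 members lower and 0 higher, that is 75.2%, against 15.3% of all 13093 genes tested called lower and 9.05% called higher (edgeR quasi-likelihood test, adjusted p under 0.05). Among the 11639 genes with a mean of at least 50 counts the shares were 16.7% lower and 9.56% higher. At an unadjusted p under 0.05, 195 members were lower and 0 higher. The median fitted change was -0.53 log2 for members and -0.06 log2 for all genes tested, with members between -1.68 and 0.11. The fit shares its estimate of the spread with the DMSO libraries that chose the genes, and with the 6 libraries of dTAG-treated cells alone 186 members were called lower and 0 higher, with 22.1% of all genes tested lower. The split of calls over all genes moved with the scaling, from 62.9% lower here to 38.2% with TMM scaling and 76.4% with plain library sizes. The median over all genes moved by over 0.1 between those, from 0.0014 log2 with TMM scaling to -0.11 log2 with plain library sizes, while 157 and 191 members were called lower.

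By CPM alone, 224 of the 226 members had a ratio of dTAG-S30 to dTAG-S0 below 0, where 72.2% of the 11639 genes did. The ratio was at or under the threshold of -0.585 for 110 members, or 48.7%, against 1.54% of the 11639 genes. All 3 dTAG-S30 libraries lay below all 3 dTAG-S0 libraries for 196 members, or 86.7%, against 36.1%. The members' summed level was 3372, 3599 and 3283 CPM in dTAG-S0 and 2374, 2229 and 2340 CPM in dTAG-S30, so the groups did not overlap. In DMSO-treated cells it was 3768, 3853 and 3717 CPM without serum and 2306, 2378 and 2302 CPM with it. Without WDR74, the member with the most counts, the dTAG sums were 3038, 3190 and 2938 CPM and then 2122, 1939 and 2044 CPM.

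The median DMSO ratio was -0.70 and the median dTAG CPM ratio -0.58, and 179 members had the smaller fall in dTAG-treated cells. The rule used the DMSO libraries of this pair, so nothing is read from the difference. The interaction, which is the serum change in dTAG-treated cells minus that in DMSO-treated cells, subtracts the ratio that chose the members, so values above 0 are favoured by construction and it tests nothing about them. The fit placed 173 of the 226 members above 0 and called 0 of them by edgeR and 0 by DESeq2, with 0.0382% of all genes tested called, and 17 members (7.52%, beside 3.12% of all genes tested) were at an unadjusted p under 0.05. Across the 226 members the DMSO and dTAG CPM ratios had a Pearson r of 0.65 and a Spearman rho of 0.50, given as a description over genes, which share libraries and are not independent.

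**Figure D2:**
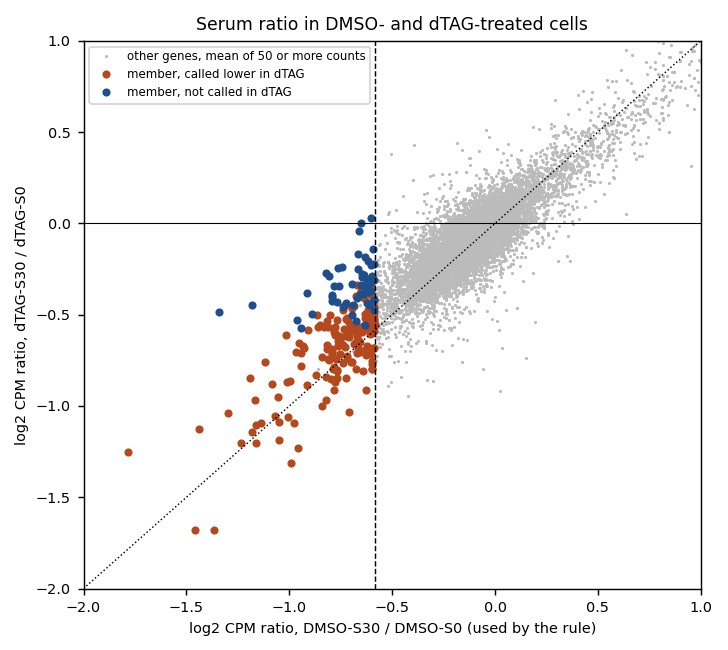
Log2 CPM ratio with serum in DMSO-treated cells (x axis) and dTAG-treated cells (y axis) for each gene with a mean of at least 50 counts. The dashed line is the threshold of the rule, the dotted line marks equal ratios, grey points left of the dashed line are ZNF genes, and genes that rose further lie outside the axes. Of the 226 members, 224 lie below 0 on the y axis and 170 were called lower there.

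The 5 members with the highest change in dTAG-treated cells were CALCRL, GPR155, PLCB2, TTLL9 and TMEM45A. CALCRL, the receptor subunit for CGRP and adrenomedullin, was at 5.04, 6.82 and 6.36 CPM in DMSO-S0 and 3.9, 4.38 and 3.7 CPM in DMSO-S30, but at 5.14, 4.86 and 4.44 CPM in dTAG-S0 and 4.68, 5.07 and 4.98 CPM in dTAG-S30. GPR155, a membrane protein of lysosomal cholesterol sensing, was at 11.6, 10.2 and 11 CPM and then 5.95, 7.89 and 7.02 CPM in DMSO, and at 7.93, 9.58 and 9.14 CPM and then 9.27, 9.45 and 7.98 CPM in dTAG. The dTAG groups overlapped in both genes, and their fitted differences were 0.11 ± 0.14 and 0.02 ± 0.12 log2 (adjusted p = 0.62 and 0.91). PLCB2, a phospholipase C, had a fitted difference of -0.0024 ± 0.18 log2, with overlapping groups. These genes are named for having the highest dTAG changes of the 226, and their difference from the DMSO ratio was not tested. The 56 members that were not called had a median mean of 93.1 counts and the 170 called members 205, and 54 of the 56 had a fitted difference below 0.

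The members were grouped by known role after their values had been seen, which placed 73 of the 226 genes in 7 groups, 52 of them (71.2%) called lower in dTAG-treated cells, beside 75.2% of all members and 15.3% of all genes tested. The counts by group below are descriptions, and no difference between groups or from the other members was tested. Ligands made up 8 members, and 7 of them were called lower in dTAG-treated cells. Beside GDF5 and THBS4 they were FGF18, a fibroblast growth factor (-0.68 ± 0.20 log2), CSF1, the macrophage growth factor (-0.59 ± 0.19), DLL1, a Notch ligand (-0.64 ± 0.15), CD70 (-0.68 ± 0.14) and TNFSF13B, also called BAFF (-0.74 ± 0.22), both of the TNF family. CD70 was at 5.43, 5.7 and 5.32 CPM in dTAG-S0 and 3.39, 3.5 and 3.1 CPM in dTAG-S30, with no overlap. NTF3, neurotrophin-3, was at 4.71, 5.61 and 3.48 CPM and then 4.41, 2.06 and 3.27 CPM, with overlapping groups and an adjusted p of 0.12.

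Receptors and channels made up 14 members with means of 54.8 to 242 counts, and 6 of them were called lower. Of all members with 50 to under 100 counts 48.4% were called, and of those with 100 to under 300 counts 81.5%. ADORA1, the adenosine A1 receptor, changed by -0.83 ± 0.17 log2, KLRG1, an inhibitory lectin receptor, by -0.71 ± 0.13, OPN3, an opsin, by -0.65 ± 0.11 and GPR143, the melanosome receptor, by -0.62 ± 0.17. P2RY2, a receptor for ATP and UTP, and RTN4RL2, a Nogo receptor homologue, also fell. The other 8 included CALCRL and GPR155, EPHB3, a receptor for ephrin-B ligands that is a Wnt target in the gut (-0.39 ± 0.15 log2, edgeR adjusted p = 0.066), and CD4 (-0.23 ± 0.23, adjusted p = 0.5).

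DNA-binding factors and their partners made up 16 members, and 11 of them were called lower, beside 75.2% of all members and 15.3% of all genes tested. HOXD3, a homeobox factor, was at 3.12, 3.25 and 3.02 CPM in dTAG-S0 and 1.52, 1.36 and 1.26 CPM in dTAG-S30, a change of -1.16 ± 0.22 log2 (edgeR adjusted p = 0.00031). Only 39.7% of the HOXD3 model is unshared on its strand, since it overlaps HOXD4 and an unnamed model. RFXAP, a subunit of the RFX complex that drives MHC class II genes, changed by -0.83 ± 0.11, ZKSCAN4 by -0.75 ± 0.11, the homeobox factor LBX2 by -0.72 ± 0.14 and BCL11A, a zinc finger repressor, by -0.65 ± 0.17 log2. HOXA11 and THAP8 also fell. ESR2, estrogen receptor beta, TFEB, a driver of lysosome genes, OVOL2, PAX9 and MNX1 did not pass, at -0.50, -0.41, -0.30, -0.35 and -0.26 log2.

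Histones and chromatin factors made up 8 members, and 7 of them were called lower, beside 75.2% of all members and 15.3% of all genes tested. H2BC11 was at 110, 109 and 114 CPM in dTAG-S0 and 74.1, 73.1 and 79.4 CPM in dTAG-S30 (-0.52 ± 0.07 log2, edgeR adjusted p = 1.3e-06). H3C12 fell by 0.43 ± 0.08 and H2AC4 by 0.31 ± 0.11 log2, while H3C13 was at -0.19 ± 0.10 log2 (adjusted p = 0.19). H2AC4 and H3C13 had overlapping dTAG groups, and H2AC4 lost its call in 7 of 21 alternatives, where its fitted values ran from -0.30 to -0.18 log2. Reads of replication-dependent histone genes can match several near-identical copies, and these values are uncertain for that reason. PCGF6, a Polycomb group subunit, was at 55.7, 59 and 53.6 CPM and then 42.1, 36.9 and 37.9 CPM (-0.48 ± 0.07 log2), and KDM4D, a demethylase of histone H3, changed by -0.53 ± 0.15 log2, with its call lost without dTAG-S30 replicate 1 (-0.38 log2).

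RNA polymerase III and RNA processing factors made up 11 members with means of 136 to 1266 counts, of which 10 were called lower. Of all members with 100 to under 300 counts 81.5% were called, and of those with 300 to under 1000 counts 94.0%. SNAPC3, a subunit of the complex that binds snRNA promoters, was at 51.7, 54.6 and 54 CPM in dTAG-S0 and 36.7, 35 and 33.5 CPM in dTAG-S30 (-0.55 ± 0.06 log2, edgeR adjusted p = 2.1e-07). BRF2, the RNA polymerase III factor of U6-type promoters, was at 12.8, 12.4 and 13.2 CPM and then 7.98, 5.51 and 7.36 CPM (-0.84 ± 0.12 log2, adjusted p = 1.2e-05). CLK4, a kinase of SR splicing proteins, was at 41.5, 48.5 and 46.9 CPM and then 27.6, 29.9 and 27.9 CPM (-0.65 ± 0.08 log2, adjusted p = 1.8e-07). All 3 had separate groups in both treatments, which the rule favours in DMSO. RP9, named for a form of retinitis pigmentosa, changed by -0.96 ± 0.09 log2, RSRP1 by -0.45 ± 0.08, RNPC3, a protein of the minor spliceosome, by -0.51 ± 0.07 and DCP1B, a cofactor of mRNA decapping, by -0.49 ± 0.08. CTU1, an enzyme of tRNA thiolation, did not pass (-0.33 ± 0.15, adjusted p = 0.11).

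Mitochondrial factors made up 8 members, and 7 of them were called lower, beside 75.2% of all members and 15.3% of all genes tested. UQCC6, an assembly factor of respiratory complex III, was at 19.7, 22.9 and 19.8 CPM in dTAG-S0 and 13.2, 13 and 12.7 CPM in dTAG-S30 (-0.64 ± 0.09 log2, edgeR adjusted p = 4.7e-06). UQCC5, of the same assembly path, changed by -0.47 ± 0.09, SDHAF4, an assembly factor of complex II, by -0.31 ± 0.11, and HSCB, a co-chaperone of iron-sulfur cluster transfer, by -0.67 ± 0.11 log2. Of the 8 kinases, adaptors and cell cycle regulators, 4 were called lower. Among them were FRS3, an adaptor of FGF receptors (-0.61 ± 0.14), and DYRK1B, a kinase of quiescent cells (-0.61 ± 0.13). CCNJL and PRKG2 were at -0.26 and -0.25 log2 and did not pass.

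**Figure D3:**
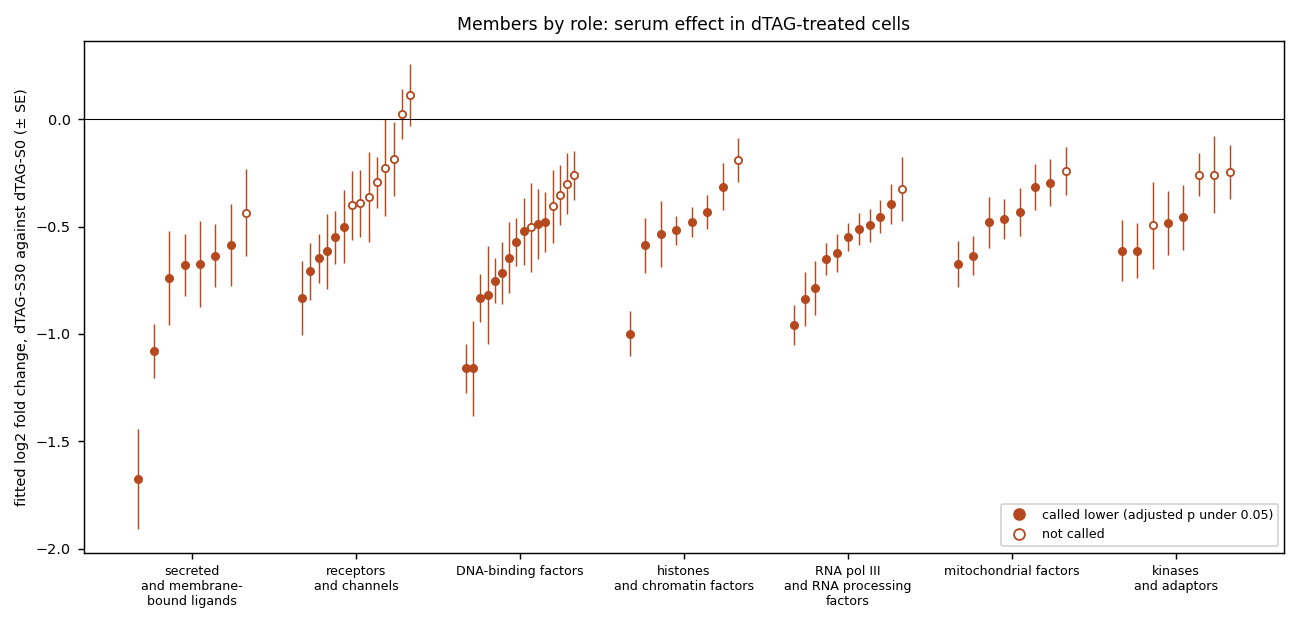
Fitted log2 fold change of dTAG-S30 against dTAG-S0 (y axis) for the 73 members placed by role (x axis), with bars for the SE. Filled points passed the test at an adjusted p under 0.05. Receptors and channels, with means of 54.8 to 242 counts, hold 6 filled points of 14. RNA polymerase III and RNA processing factors, with means of 136 to 1266 counts, hold 10 of 11. No difference between them was tested.

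Lists of genes, drawn up with earlier results of these data known, gave the surroundings of these counts. Over all 13093 genes tested, 15.3% were called lower and 9.05% higher in dTAG-treated cells. Members were 1.94% of the 11639 genes with a mean of at least 50 counts. No list was tested against these shares. Of 27 tested FOXO and MondoA targets and feedback genes, 0 were members, 5 were called lower and 9 higher in dTAG-treated cells, with a median of 0.01 log2. Of 29 tested immediate early genes 0 were members and 28 were called higher, and of 27 mitotic and G2/M genes 0 were members, 11 were lower and 0 higher (median -0.14 log2). The lists drawn up for BMP and TGF-beta signalling (which does not name GDF5), circadian clock, p53 target, sterol synthesis, antiproliferative, and P-TEFb and elongation factor genes held 0 members, as did the 2 marker lists. Of 41 tested replication-dependent histone genes 4 were members, and 10 were called lower and 0 higher, with a median of -0.17 log2. Of 86 zinc finger factors other than ZNF 3 were members (ZSCAN12, ZFP2 and ZKSCAN4, all called lower), and 23 were lower and 5 higher (median -0.10). Of 242 ubiquitin ligase subunits 3 were members (FBXO17, KCTD21 and TRIM45), and 47 were lower and 23 higher (median -0.11).

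The remaining lists held few members, and the same shares over all genes stand beside them. Of 110 tested homeobox, forkhead, SOX, GATA and KLF factors, HOXD3, HOXA11 and PAX9 were members, TBXAS1, the enzyme thromboxane synthase, was caught by its first letters, and 11 genes were lower and 18 higher. DLL1 was the 1 member among 23 HES, HEY, ID and Notch genes, of which 2 were lower and 7 higher, and EPHB3 the 1 among 34 Wnt genes, of which 3 were lower and 5 higher. FRS3 was the 1 member of 31 growth factor receptors and adaptors (4 lower, 5 higher), KDM4D of 97 histone and DNA methylation enzymes (12 lower, 7 higher) and DCP1B of 28 mRNA decay factors (3 lower, 10 higher). In lists made after the values were seen, all 3 members among 9 tested complex III and II assembly factors fell (6 lower, 0 higher in the list, median -0.31 log2), as did THAP2 and THAP8 among 11 THAP factors (3 lower), BRF2 and SNAPC3 among 26 RNA polymerase III and snRNA promoter factors (4 lower) and CLK4 among 6 CLK and SRPK kinases (2 lower). Of 18 TNF, FGF and neurotrophin ligands 3 were lower and 6 higher, with 4 members. The 7 ZNF genes left out by the rule were all called lower in dTAG-treated cells, from ZNF514 at -0.72 to ZNF517 at -0.45 log2.

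Taken over all levels of mean count, the members were of middling length. Their median gene length was 34.5 kb (quartiles 17.0 and 63.3 kb), against 36.4 kb (15.2 and 85.2 kb) for the 11639 genes with a mean of at least 50 counts. Genes up to 5 kb made up 3.10% of members and 6.68% of those genes, and genes over 100 kb made up 14.6% and 21.0%. In between, the shares were 28.8% and 25.5% from 5 to 20 kb, 32.7% and 27.8% from 20 to 50 kb, and 20.8% and 19.0% from 50 to 100 kb. Counts were taken over whole genes and members had low counts, so median length is also given by class of mean count below. There the members had the longer median in every class but the highest. Among members, gene length and the signed log2 value, where a lower value is a larger fall, had a Spearman rho of 0.06 for the DMSO ratio and 0.02 for the fitted change in dTAG-treated cells (226 genes, a description). The median fitted change ran from -0.43 log2 in the 7 members up to 5 kb to -0.57 log2 in the 65 members from 5 to 20 kb, and was -0.55 log2 in the 33 members over 100 kb.

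The 3 shortest members were H2AC4 (394 bp), H3C13 (412 bp) and TIGD1 (2626 bp), a gene derived from a pogo-like transposase, which fell by 0.34 ± 0.10 log2 in dTAG-treated cells (edgeR adjusted p = 0.015). The 3 longest were TMEM232 (450 kb), UNC79, a subunit of the NALCN sodium channel complex (375 kb), and PRH1, a salivary proline-rich protein gene (347 kb). They changed by -0.45 ± 0.12, -0.53 ± 0.14 and -0.65 ± 0.14 log2 and were all called lower. TMEM232 lost its call with ERCC library sizes and without dTAG-S0 replicate 2 or dTAG-S30 replicate 2 (-0.43, -0.35 and -0.36 log2), and TIGD1 with TMM scaling, with ERCC library sizes and without dTAG-S30 replicate 3 (-0.28, -0.31 and -0.28 log2). The PRH1 model covers a row of bitter taste receptor genes, and only 5.73% of it is unshared on its strand. Exons of GENCODE v44 covered a median of 12.2% of a member's length and 15.6% of that of all genes with a mean of at least 50 counts, and median GC content was 45% and 44.7%.

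Members had low levels. Their median was 171 counts per library against 944, and 0.335 against 1.20 CPM per kb of gene length in DMSO-S0. Members were 9.47% of the genes with a mean of 50 to under 100 counts, 6.57% of those with 100 to under 300, 1.33% of those with 300 to under 1000 and 0.108% of those with 1000 or more. The part of counting error at low counts in these shares was not tested. Called shares in dTAG-treated cells rose with the count class, from 48.4% of 62 members to 81.5% of 108 and 94.0% of 50, with 5 of the 6 members in the highest class, while the same classes of all genes were called lower in 10.5%, 15.8%, 21.0% and 14.8%. The median fitted change was nearly level over the first 3 classes, at -0.50, -0.55 and -0.53 log2, and was -0.44 log2 in the highest. Within these classes the median length of members was 26.6, 32.6, 47.4 and 8.16 kb, against 23.2, 20.1, 27.3 and 51.1 kb of all genes in the class.

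**Figure D4:**
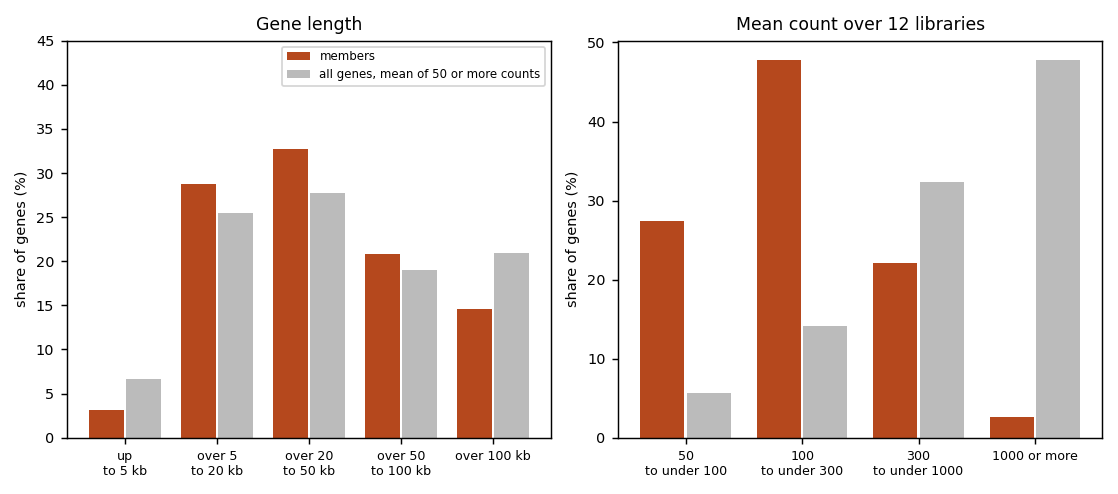
Share of genes in % (y axis, from 0) by gene length (left) and by mean count (right) for the 226 members and for all 11639 genes with a mean of at least 50 counts. Members have smaller shares than all genes in both end classes of length, and 2.65% of members against 47.8% of all genes lie in the highest count class.

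The 6 members with a mean of 1000 or more counts were H2BC11, H2AC4, H3C12, PCGF6, RSRP1 and WDR74. WDR74, a ribosome biogenesis factor, had the highest count of all members, and H2AC4, H3C13 and WDR74 were highest per kb in DMSO-S0, at 201, 86.8 and 54.7 CPM per kb. WDR74 was at 550, 595 and 409 CPM in DMSO-S0, 399, 359 and 258 CPM in DMSO-S30, 334, 409 and 345 CPM in dTAG-S0 and 251, 291 and 295 CPM in dTAG-S30. Its groups did not overlap in either treatment, which the rule favours in DMSO. Yet the libraries within a group spread widely, and the fitted difference in dTAG-treated cells was -0.35 ± 0.19 log2 (edgeR adjusted p = 0.23). Its model holds RNU2-2P, a copy of the U2 small nuclear RNA gene, on the same strand, and which of them the reads came from was not tested. A small RNA gene lay inside 21 members, or 9.29%, and 8.37% of all genes with a mean of at least 50 counts.

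Members often shared their place with other genes. The counts behave as if reads were assigned by strand and dropped where gene models of the same strand overlap, because 466 of 489 genes wholly covered by others on their own strand had 0 counts in all 12 libraries, against 103 of 581 covered only on the other strand. An overlapping member is thus counted over its unshared stretches. Of the members, 25.2% overlapped another model on the same strand, against 7.99% of all genes with a mean of at least 50 counts, and 11.1% against 1.37% carried the read-through tag of GENCODE v44. Models without a gene name made up 10.6% against 1.29%. Within each count class the share with a same-strand overlap was 32.3% against 21.8%, 27.8% against 13.1%, 10% against 8.38% and 33.3% against 4.60%, from the lowest class to the highest. These classes held 62, 108, 50 and 6 members, so the last share rests on few genes.

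RPS10-NUDT3, a read-through model over RPS10 and NUDT3, was such a member. It had a mean of 116 counts over the 17.5% of its span that is unshared, while RPS10, a ribosomal protein gene covered almost wholly by it, was at a mean of 0.5 counts. RPS10-NUDT3 was at 6.84 ± 0.40 CPM in dTAG-S0 and 3.29 ± 0.67 CPM in dTAG-S30 (SD, n = 3), a fitted change of -1.002 log2 (edgeR adjusted p = 1.0e-05), and NUDT3, which is no member, was at 75.8 ± 2.89 and 77.9 ± 4.57 CPM. The model ENSG00000258465 fell by 1.26 ± 0.16 log2 with 21.1% of its span unshared, and ENSG00000285000, over AGGF1, had a DMSO ratio of -1.44 and a fitted change of -1.08 ± 0.19 log2 with 17.7% unshared. CUZD1, with CUB and zona pellucida domains, fell by 1.20 ± 0.18 log2 and overlaps FAM24B, another member.

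A gene with at least 10 times the member's counts ended within 5 kb upstream on the same strand, or overlapped the member's start, for 28 members, or 12.4%, against 1.33% of all genes with a mean of at least 50 counts. In the 2 lowest count classes, which held all 28, the shares were 27.4% against 9.62% and 10.2% against 4.07%. The upstream genes had a median CPM ratio of -0.09 log2 in dTAG-treated cells, between -0.26 and 0.20, and the 28 members a median of -0.58. Each of the 28 members had a lower ratio than its upstream gene. The rule chose members for a low DMSO ratio, which favours this result in advance, so nothing is read from it. GCNA, a protein of germ cells, starts 2.51 kb after OGT and had a ratio of -1.11 beside -0.26, TEX22 starts 0.431 kb after PACS2 with -0.91 beside 0.12, and DYRK1B starts 0.256 kb after FBL with -0.67 beside -0.05. Whether reads past the end of the upstream gene fell into the member was not tested.

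**Figure D5:**
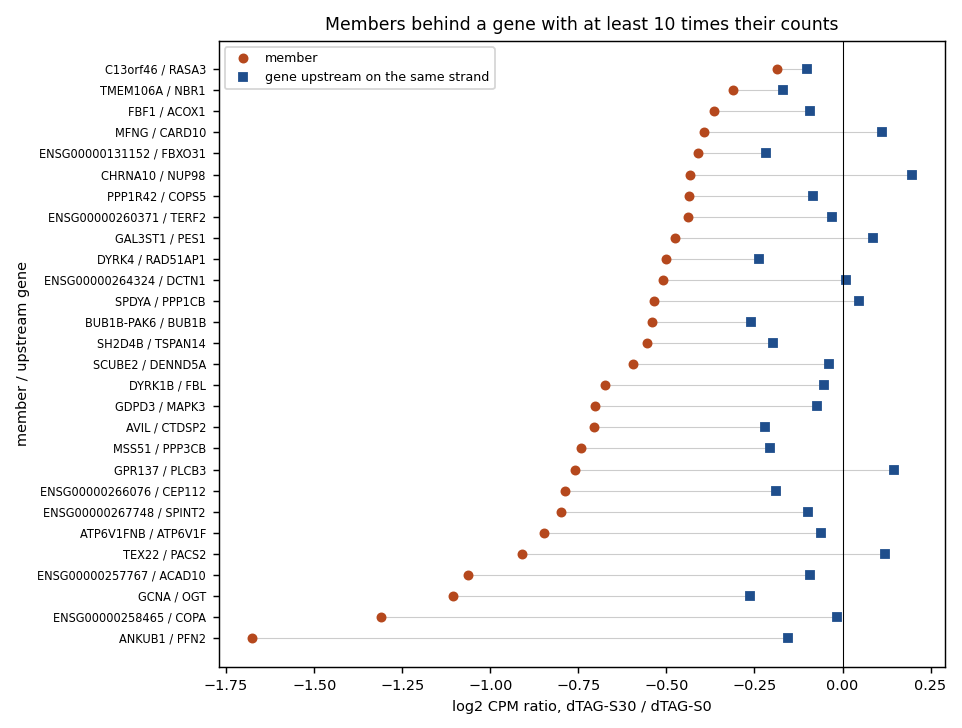
Log2 CPM ratio of dTAG-S30 to dTAG-S0 (x axis) for the 28 members behind a gene with at least 10 times their counts, and for that gene, one pair per line (y axis). Every member lies left of its upstream gene, as the choice of members favours, and the upstream genes lie between -0.26 and 0.20.

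The 145 members with no same-strand overlap, no read-through tag and no expressed gene within 5 kb upstream are given apart. Of these, 110 were called lower in dTAG-treated cells, or 75.9%, with a median of -0.52 log2, and of the remaining 81 members 60 were called, or 74.1%, with a median of -0.57 log2. Members with near-identical copies elsewhere, such as FAM86B2, NPIPB2, NBPF1, DDTL, FAM156A, CASTOR2 and LRRC37B, are uncertain where reads could match several places. The members lay on 22 chromosomes.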

How the data were processed

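RNA-Seq of total RNA depleted of ribosomal RNA was measured in 12 libraries, with spike-in RNA (ERCC) added. The authors trimmed reads with Trim Galore 0.6.4, mapped them to hg38 with STAR and counted them with featureCounts (Subread 1.6.3) over whole protein-coding genes, introns included. The deposited values are raw counts per gene, without normalization, together with gene positions and lengths. Start positions were moved to a base of 1. Gene models, and the overlaps and upstream distances between them, were those of the deposited counts. GENCODE v44, which held 19802 of the 19901 gene identifiers, gave the read-through tags, exons and small RNA genes.

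Members and gene lists were chosen with earlier results of these data known. CPM used the sum of gene counts, without the 92 spike-ins. A gene was tested where 6 or more libraries held 10 or more of its counts (13093 genes, 6808 left out). Counts were scaled by upper quartile, 1 RUVg factor was estimated from 69 spike-ins, and all 4 groups were fitted in edgeR 4.0.16 (R 4.3.3) with the two-sided quasi-likelihood F-test and Benjamini-Hochberg adjustment over all genes tested. The SE of a fitted change was calculated back from the test, as its absolute log2 value over the square root of F. The script was tested on simulated data. The study names its replicates biological. The p-values measure the spread between these libraries. Alternatives were other scalings, DESeq2 1.42.0, a likelihood ratio test, no count filter, a replicate block, other rules of membership and leaving out each library.

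The genes named were the 12 lowest DMSO ratios, the 8 largest falls and 5 highest changes in dTAG-treated cells, the 3 genes on each side of the threshold, up to 4 members of each list, the 3 shortest, 3 longest and 3 most abundant per kb, and the 3 lowest and 3 highest interactions. Other members named by role or position were chosen after their values were seen. Counts cannot tell duplicate reads from separate molecules.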

Additional observations from a re-analysis of the deposited data

How the results depend on the processing

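The number of members depended on scaling and thresholds: it was 109 with TMM library sizes and 109 with ERCC library sizes, which both leave 109 of the 226, 346 with a mean of at least 20 counts and 23 at a log2 ratio at or under -1. Leaving out 1 of the 6 DMSO libraries gave 203 to 277 members, of which 175 to 209 were among the 226. Median gene length was 40.04 kb with a mean of at least 100 counts, 21.5 kb at a log2 ratio at or under -1, and 25.9 to 36.6 kb when 1 DMSO library was left out.

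Members called lower in dTAG-treated cells numbered 142 to 191 over the alternatives and 152 to 184 when 1 library was left out, with medians from -0.58 to -0.47 log2 and 0 members called higher in each. For the subset with no overlap or upstream neighbour, chosen after seeing the data, 110 were called lower, by construction out of fewer genes. The interaction called 0 members in every alternative run. The replicate block gave 170 members and a median of -0.53 log2. Libraries of the same number did not deviate together in the way pairing would need, with correlations from -0.15 to 0.099. Between DMSO-S0 and DMSO-S30 each library correlated best with its own number, at 0.051 to 0.064. Between dTAG-S0 and dTAG-S30 no library did, and across treatments only some did.

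Among 45 named members under 21 alternatives, 891 values kept direction and side of the threshold, 20 lost and 18 gained significance (H2AC4, TIGD1, TMEM232, TBXAS1, ZSCAN12, KDM4D and SLC35D2 lost it in at least 1, and TRIM45, WDR74, PAX9, EPHB3 and ENSG00000272647 gained it, WDR74 also under the replicate block), and 16 changed sign, all with adjusted p over 0.05. PLCB2 went to 0.0599 with TMM scaling, 0.039 with ERCC library sizes, 0.0033 with the upper quartile alone, 0.056 with DESeq2, 0.071 without the count filter, 0.0015 with the replicate block, 0.0081 with the dTAG libraries alone, and to between -0.12 and 0.15 log2 when a library was left out. GPR155 then lay between -0.039 and 0.17 and TTLL9 between -0.46 and 0.13 log2. The cause was not tested. Values of members under 100 counts rest on few reads, and the part of depth in their spread was not tested.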
